A study of Mus musculus with 3 samples.

Results

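Proliferation-gated crypt-type epithelial cells of the mouse colon were chosen by their UMI counts of proliferation and marker genes (a UMI, or unique molecular identifier, marks 1 captured transcript). A barcode was a member if it had at least 300 genes, at most 25% mitochondrial UMIs and at least 5 UMIs of Epcam, Krt8, Krt18 and Krt19. It also needed at least 5 UMIs of the 10 proliferation genes Mki67, Top2a, Birc5, Cdk1, Ube2c, Ccnb1, Tpx2, Pclaf, Hmgb2 and Stmn1. Members held under 2% of UMIs from each of 2 gene sets, one of mucus genes and one of absorptive genes, and under 3 UMIs of 5 immune genes. The rule found 631 members among 16406 barcodes that passed the gene and mitochondrial limits in the 3 libraries, and 631 of 9007 gated epithelial barcodes.

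The mice were germ-free and fell into 3 groups: PBS, colonization by BT WT, and colonization by BT mutant. Mice raised germ-free carry no microbiota of their own, so the PBS group is an uncolonized control, and what all 3 groups share is the germ-free background. The sources used here do not give strain, age, sex, number of animals, time after colonization or the nature of the mutation. With 1 droplet 3' library per group, differences between libraries could not be set against replicates, and no p-value is given. All intervals are exact 95% intervals that cover counting error only.

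The colonic crypt is lined by a single sheet of epithelium that is renewed from stem cells at its base. Their daughters, called transit-amplifying cells, divide while moving upward and then become absorptive colonocytes or secretory cells, under opposing control by Wnt signals at the base and by Notch signals between neighbours. A dividing cell first makes the enzymes and histones of DNA replication and later the cyclins, kinases and motor proteins of mitosis.

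Across the series, the libraries held 4425, 8829 and 8195 barcodes and 42003444, 55436776 and 54943483 UMIs (in the order PBS, BT WT, BT mutant, used below). The 3 pairs of libraries shared 8 to 19 barcodes, and no member barcode was shared. Gated epithelial barcodes numbered 1028, 4295 and 3684, and those passing every part of the rule except the proliferation minimum (crypt-type barcodes) 467, 1643 and 1881. Scrublet, a doublet caller, marked 3, 87 and 0 barcodes, and its call failed at least in BT mutant. Doublets therefore remain in the data; removing the 157, 624 and 537 highest-scoring barcodes would take out 0, 3 and 7 members.

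The members were 144 cells in PBS, 171 in BT WT and 316 in BT mutant. They made up 14.0% (11.9% to 16.3%), 3.98% (3.42% to 4.61%) and 8.58% (7.69% to 9.53%) of gated epithelial barcodes. Over all barcodes that passed the gene and mitochondrial limits the shares were 4.50%, 2.42% and 5.15%. BT WT was lowest by both denominators. PBS was above BT mutant by the first, and by the second the intervals of PBS (3.81% to 5.28%) and BT mutant (4.61% to 5.73%) overlapped. At a mitochondrial limit of 10% in place of 25%, the shares of gated epithelial barcodes were 14.3%, 11.5% and 20.1%, with BT mutant above PBS. The shares follow from the UMI counts that chose the members and are given as a description.

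Members were among the deepest barcodes of the data. Their median depth was 38644, 40066 and 27934.5 UMIs, against 1927, 3718 and 2936 UMIs in crypt-type barcodes that missed the proliferation minimum. Of crypt-type barcodes with at least 30000 UMIs, 81.1%, 90.6% and 89.4% were members. Between 10000 and 30000 UMIs the shares were 51.7%, 40% and 58.5%, and between 2000 and 10000 UMIs 11.1%, 0.399% and 2.19%. Membership thus moved with depth in each library, and within the deepest range the order of the libraries was not the order of the overall shares. After every cell was thinned to 2000 UMIs, members were 3.37%, 0.829% and 1.49% of gated epithelial barcodes deep enough to thin.

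Barcodes just outside the minimum resembled those just inside it. With 4 proliferation UMIs there were 10, 25 and 34 barcodes at medians of 22109, 18387 and 16856 UMIs. With 5 there were 9, 11 and 33, at medians of 21131, 19395 and 16698 UMIs. Barcodes that met the minimum but failed another part of the rule numbered 18, 19 and 20 on mucus genes alone, 59, 21 and 81 on absorptive genes alone, and 38, 19 and 33 on immune genes alone.

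The label of proliferating cells was borne out by a part of the members. Epcam, an adhesion protein of epithelia, had a UMI in 99.3%, 99.4% and 100% of them, but it is 1 of the 4 epithelial genes of the rule, so this is a description. Hmgb2, a chromatin protein that is abundant in dividing cells but not limited to them, had a UMI in 99.3%, 99.4% and 99.4%. Hmgb2 and Stmn1, which encodes a microtubule regulator, together supplied 64.8%, 63.7% and 74.1% of all proliferation UMIs. Mki67 (the Ki-67 antigen) or Top2a (a topoisomerase of replicating DNA) had a UMI in 68 of 144, 98 of 171 and 123 of 316 members, or 47.2%, 57.3% and 38.9%. No UMI of the 8 genes other than Hmgb2 and Stmn1 was seen in 54, 55 and 142 members, or 37.5%, 32.2% and 44.9%. The members are therefore called proliferation-gated cells here rather than proliferating cells.

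A subset carried most of the proliferation signal. Members with at least 10 proliferation UMIs per 10000 UMIs, a limit set after the values were seen and called high-proliferation members below, numbered 41, 47 and 72. They were 28.5% (21.3% to 36.6%), 27.5% (20.9% to 34.8%) and 22.8% (18.3% to 27.8%) of members and held 73.3%, 77.5% and 65.9% of the proliferation UMIs. Of gated epithelial barcodes they were 3.99%, 1.09% and 1.95%, in the same order as all members. Of crypt-type barcodes with at least 30000 UMIs they were 16.4%, 23.1% and 13.8%, with BT WT highest and overlapping intervals. Between 8 and 12 per 10000 lay 11, 6 and 31 members, so the limit marks a range and not a separate cell type. Mki67 or Top2a was seen in 35 of 41, 45 of 47 and 60 of 72 high-proliferation members.

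**Figure D1:**
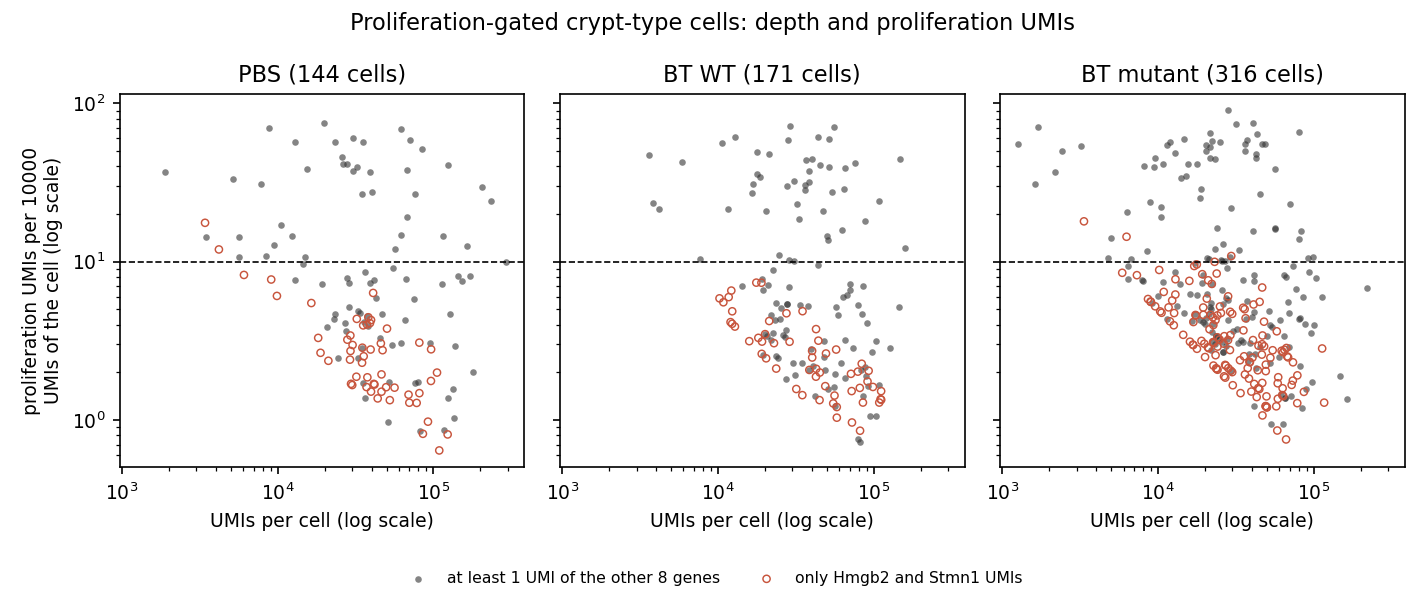
Proliferation UMIs per 10000 UMIs of a cell against the cell's UMIs, both on log axes, for the 144, 171 and 316 members of PBS, BT WT and BT mutant. Each point is 1 cell, open points have no UMI of the 8 genes other than Hmgb2 and Stmn1, the dashed line marks 10 per 10000, and the lower edge of each cloud is the minimum of 5 UMIs.

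By gene the high-proliferation members differed as follows, which their definition by these same genes fixes in part. Mki67 stood at 111.8 CPM (the gene's UMIs per 1000000 of the members' summed UMIs) in PBS, 99.8 in BT WT and 61.4 in BT mutant. In high-proliferation members it stood at 404, 382 and 328 CPM and in the other members at 19.5, 13.9 and 7.46 CPM. Birc5, which encodes survivin of the chromosomal passenger complex, was detected in 70.7%, 87.2% and 70.8% of high-proliferation members and in 10.7%, 12.1% and 4.51% of the others. Ccnb1 (cyclin B1, the partner of Cdk1 at entry to mitosis) was detected in 56.1%, 70.2% and 41.7% against 5.83%, 1.61% and 1.64%. Hmgb2 did not separate the cells by detection but did by level, at 1482, 1394 and 1621 CPM against 228, 174 and 243 CPM. Krt8 ran the other way, at 2215, 2477 and 2577 CPM in high-proliferation members and 3921, 4378 and 4886 CPM in the others.

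**Figure D2:**
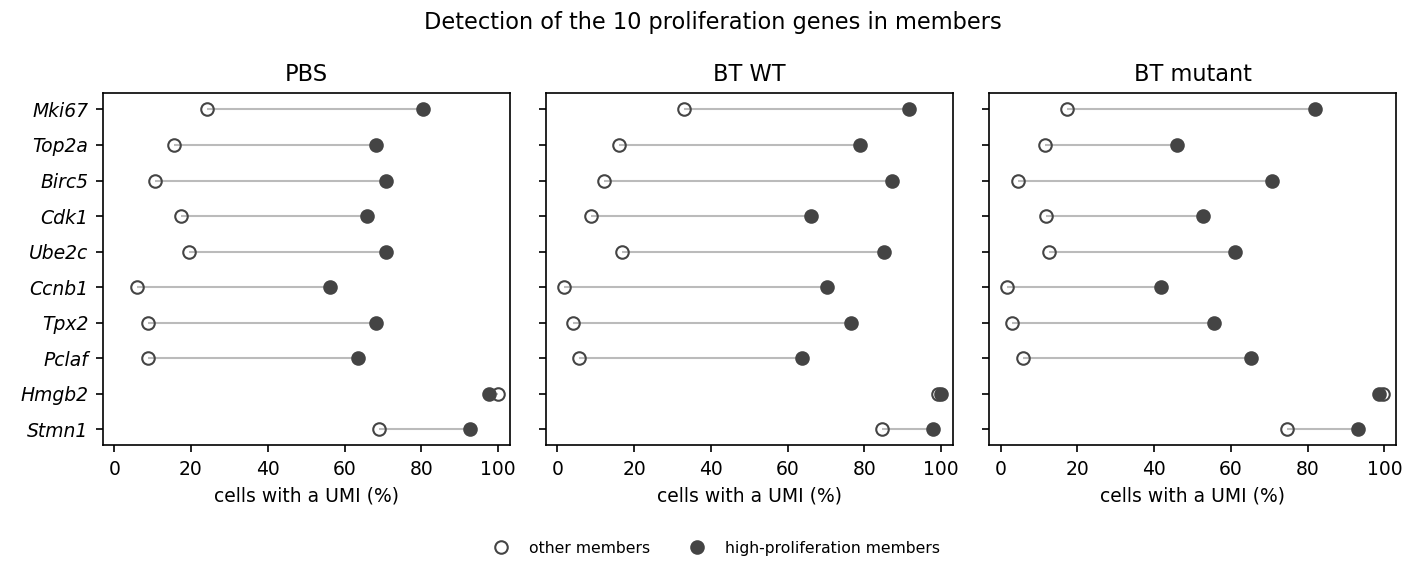
Percent of members with at least 1 UMI of each of the 10 proliferation genes, by library. Filled points are high-proliferation members and open points are the other members; Hmgb2 is near 100% in both, and the 8 genes other than Hmgb2 and Stmn1 lie far apart.

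Of the 10 rule genes, 8 had a RefSeq promoter entry (GRCm38.p6). The 250 bases before the start of 4 of them are shown because Hmgb2 was detected in nearly every member, while Mki67, Cdk1 and Ube2c were concentrated in high-proliferation members. Capitals mark 2 motifs known from genes with peak expression in late cell cycle, the CHR element TTTGAA and the CCAAT box, each searched on both strands. Adjoining matches can overlap.
Hmgb2, chr8:57511593-57511842, plus strand: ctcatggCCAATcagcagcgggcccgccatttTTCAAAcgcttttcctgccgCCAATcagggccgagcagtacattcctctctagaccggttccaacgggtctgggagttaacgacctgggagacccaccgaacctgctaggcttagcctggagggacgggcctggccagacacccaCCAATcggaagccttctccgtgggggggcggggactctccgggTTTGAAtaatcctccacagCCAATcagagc
Mki67, chr7:135716380-135716629, minus strand: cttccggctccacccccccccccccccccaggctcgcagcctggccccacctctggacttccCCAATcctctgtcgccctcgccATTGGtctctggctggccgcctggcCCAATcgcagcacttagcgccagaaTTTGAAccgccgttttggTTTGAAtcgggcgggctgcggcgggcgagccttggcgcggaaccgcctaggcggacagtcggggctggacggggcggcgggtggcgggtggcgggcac
Cdk1, chr10:69352913-69353162, minus strand: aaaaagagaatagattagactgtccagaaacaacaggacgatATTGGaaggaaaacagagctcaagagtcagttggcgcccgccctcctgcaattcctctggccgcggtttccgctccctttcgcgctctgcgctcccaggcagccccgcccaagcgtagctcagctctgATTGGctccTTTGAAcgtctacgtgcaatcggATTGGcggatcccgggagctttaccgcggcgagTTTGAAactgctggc
Ube2c, chr2:164769679-164769928, plus strand: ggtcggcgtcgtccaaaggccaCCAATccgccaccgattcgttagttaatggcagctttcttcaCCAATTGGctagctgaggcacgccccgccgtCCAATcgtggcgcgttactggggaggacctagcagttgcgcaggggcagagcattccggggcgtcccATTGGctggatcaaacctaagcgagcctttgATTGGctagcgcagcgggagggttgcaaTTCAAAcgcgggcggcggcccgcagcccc
A CHR match was present in 5 of the 8 promoters (these 4 and Top2a) and a CCAAT match in 7 of 8, all but Birc5. Over all 32851 RefSeq promoter entries of this length, 16.0% held a CHR match and 33.8% a CCAAT match. Both were present in Hmgb2 as well as in Mki67, Cdk1 and Ube2c, whichever their spread over members. The E2F-type strings TTTGGCGC, TTTCCCGC and TTCCCGCC were in none of the 8 windows and in 2.69% of all entries. Mki67 lies on chromosome 7 from 135689784 to 135716361 and Hmgb2 on chromosome 8 from 57511907 to 57515999 (GRCm38, GENCODE vM21), both protein-coding.

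Outside the rule, the genes that set members most apart from other crypt-type barcodes of the same library included 7 that act in mitosis among the 15 named. Because the members were chosen for proliferation UMIs, this is a description. Cenpf, a kinetochore protein, stood at 53.8, 73.8 and 43.2 CPM in members and at 1.43, 0.690 and 0.844 CPM in the other crypt-type barcodes. Ccnb2, Cdc20, Cdca3, Hmmr, Cdkn3 and Ccna2, which act in mitotic entry, spindle and exit, were the other 6. For these 6 genes the log2 ratio of CPM + 10 ran from 1.39 to 2.45.

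The remaining 8 named genes had other roles. Kcne3 and Kcnn4 encode a subunit and a pore of epithelial potassium channels, and Slc12a2 the basolateral chloride carrier of crypt cells. Kcne3 stood at 145.3, 219.5 and 154.6 CPM against 22.9, 26.2 and 22.7 CPM. Gpx2, a glutathione peroxidase of crypt epithelium, stood at 606, 491 and 471 CPM against 217, 53.4 and 78.4 CPM. The rest were Hist1h2ap, Ccdc34, Hmgn2 and Rangrf. The median over the 9645 genes measured was 0.08, 0.14 and 0.12 on the log2 scale.

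Of all genes measured, 8.1%, 24.8% and 20% were at least 1.5-fold higher in members and 4.18%, 15.7% and 11.8% lower, against which the list counts are to be read. The mitosis genes had medians of 1.03, 1.06 and 0.74 over other crypt-type barcodes, with 42, 44 and 33 of 53 at least 1.5-fold higher. DNA replication genes had medians of 0.50, 0.65 and 0.69 (10, 21 and 25 of 36). Ribosome biogenesis genes, which serve growth, had medians of 0.67, 1.48 and 1.24 (21, 30 and 29 of 31). Nuclear RNA went the other way, with medians of -0.99, -1.63 and -1.84 over 4 genes. The other crypt-type barcodes are shallow, and the part of depth in these values was not tested beyond thinning. After thinning to 2000 UMIs, Rangrf in PBS was the 1 named gene whose log2 ratio turned negative, at -0.38.

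The balance of mitotic and replication transcripts was read per cell as mitosis-list UMIs (54 genes) in percent of mitosis plus DNA replication lists (43 genes), with no rule gene in either list. Among the 139, 168 and 306 members with at least 10 such UMIs, the lowest cell was at 16.7%, 24.8% and 11.5%, the median at 75%, 74% and 70.2%, and the highest at 95.5%, 97.4% and 100%. At least 50% was reached by 84.2% (77.0% to 89.8%), 86.3% (80.2% to 91.1%) and 71.2% (65.8% to 76.2%). The interval of BT mutant lay below the other 2 intervals, but not without Tubb4b, a widely used beta tubulin of the mitosis list. Without it the shares were 76.3% (68.3% to 83.1%), 73.1% (65.7% to 79.6%) and 64% (58.3% to 69.4%), and the intervals overlapped. Between 40% and 60% lay 28, 28 and 63 members, so that this balance is a range and not a phase call.

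In high-proliferation members the median balance was 76.2%, 89.6% and 85%, with at least 50% in 31 of 38, 43 of 46 and 47 of 67. These shares were 81.6% (65.7% to 92.3%), 93.5% (82.1% to 98.6%) and 70.1% (57.7% to 80.7%), the same with and without Tubb4b. Here the interval of BT mutant lay below that of BT WT, and that of PBS overlapped both. The summed mitosis list stood at 4611, 5268 and 4735 CPM in them and at 1172, 1065 and 999 CPM in the other members. The replication list stood at 1598, 1075 and 1430 CPM against 478, 501 and 572 CPM. The mitosis level of the other members came in large part from widely used genes. Tubb4b alone stood at 499, 498 and 453 CPM there, which left 672.6, 567 and 545 CPM for the rest of the list, below the replication list in BT mutant. Mki67 stood at 19.5, 13.9 and 7.46 CPM.

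**Figure D3:**
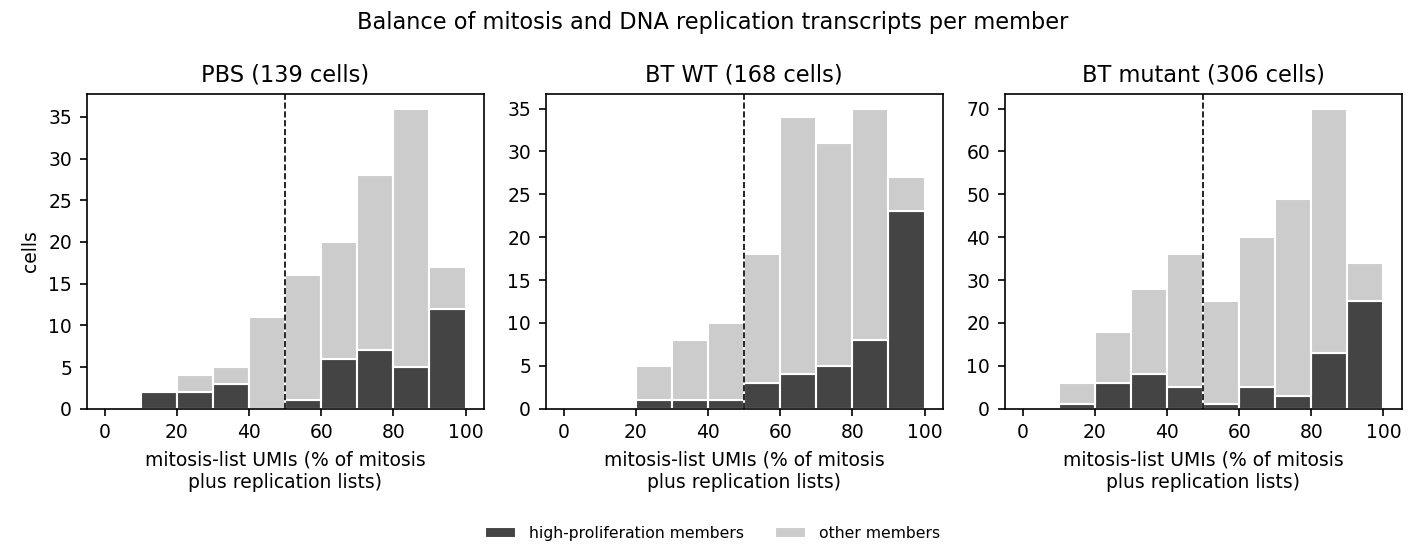
Number of members by mitosis-list UMIs in percent of mitosis plus DNA replication lists, in bins of 10 percentage points, for members with at least 10 such UMIs (139 in PBS, 168 in BT WT, 306 in BT mutant). Dark bars are high-proliferation members, light bars stacked on them are the other members, and the dashed line is at 50%; the share at or above it was 84.2%, 86.3% and 71.2%, and without Tubb4b, not plotted, 76.3%, 73.1% and 64%.

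Crypt-base and fate genes were present in members at graded levels. Sox9, a transcription factor of crypt progenitors, had a UMI in 75.7%, 85.4% and 66.1% of members and stood at 122.8, 134 and 66.7 CPM. Axin2, a Wnt target, had one in 41% (32.9% to 49.5%), 63.2% (55.5% to 70.4%) and 35.1% (29.9% to 40.7%). Lgr5, the marker of cycling crypt-base stem cells, had one in 13.9%, 15.8% and 8.23%, and Ascl2, its partner in stem cell identity, in 14.6%, 25.7% and 14.6%. BT WT had the highest share of each, and its interval lay apart from that of BT mutant for Sox9, Axin2 and Ascl2 but not Lgr5, and from that of PBS for Axin2 alone of the 4. Gated B cells, which should lack these genes, had a UMI in at most 2.17% of cells at a median of 2746 to 3493 UMIs. After thinning both to 2000 UMIs, Axin2 was seen in 4.90%, 7.60% and 3.83% of members and in at most 0.535% of B cells. The unthinned shares compare members of unequal depth, at a median of 40066 UMIs in BT WT and 27934.5 in BT mutant. Thinned, the Axin2 intervals of the 3 libraries overlapped, and so did the Ascl2 intervals of BT WT and BT mutant. For Sox9 those of BT WT (17.8% to 31.1%) and BT mutant (8.74% to 16.3%) stayed apart.

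The stem genes were higher where proliferation was high. Lgr5 stood at 13.3, 19.5 and 17.4 CPM in high-proliferation members and at 3.19, 6.71 and 2.80 CPM in the others. Ascl2 stood at 21.7, 54.2 and 29.2 against 6.55, 11.8 and 10.6 CPM, and Slc12a2 at 406, 488 and 432 against 145.2, 259 and 174 CPM. Smoc2, another crypt-base gene, had a UMI in 19.4%, 27.5% and 17.1% of members. Cdkn1a, the p21 inhibitor that stops the cycle, ran the other way, at 111, 103 and 74.8 CPM in high-proliferation members and 354, 280.2 and 319 CPM in the others. Myc had a UMI in 43.1%, 42.7% and 32.9% of members and in 24.7%, 23.5% and 31.9% of B cells at their far lower depth. After thinning the B cell shares were the higher ones, so the Myc shares are not read as expression in members.

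Atoh1, the master regulator of secretory cells, had a UMI in 17.4% (11.6% to 24.6%), 18.1% (12.7% to 24.7%) and 4.11% (2.21% to 6.93%) of members. Dll1, the Notch ligand that secretory progenitors present, had one in 19.4%, 19.9% and 8.54%. Hes1, the Notch target that holds cells out of the secretory path, stood at 250.1, 337 and 170 CPM. All 3 genes were lowest in BT mutant. Hes1 had a UMI in 18.2%, 18.5% and 7.85% of B cells, and Atoh1 and Dll1 in at most 0.935% of them. After thinning to 2000 UMIs, Atoh1 was seen in 2.10%, 4.09% and 0.639% of members, with overlapping intervals. The goblet list of 15 genes, which holds Atoh1 and Spdef and of which the rule limited 7, moved with these genes, at 3490, 3243 and 974 CPM. Its 8 genes outside the rule stood at 207, 180.1 and 49.1 CPM, with 5 of 8 lower in BT mutant over BT WT, or 1 of 7 without the other-lineage members described next, whose choice used only Spink4 of the goblet list. Over all genes with at least 20 UMIs, 1.69% were at least 1.5-fold lower in that comparison, and 1.38% without those members. The part of goblet-type members in the fate genes was not tested further.

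Members with strong markers of another lineage were unevenly spread over the libraries. At least 0.5% of UMIs from crypt-base secretory, enteroendocrine, tuft, fat, fibroblast or endothelial markers (a limit set after the values were seen) was held by 32, 25 and 13 members, with 29.3%, 18.7% and 3.42% of all member UMIs. They are called other-lineage members below, and values without them are given where they matter. Of these, 25, 23 and 3 passed on the crypt-base secretory list of 5 genes, whose summed level over all members was 5413, 4594 and 337 CPM. Mptx1, a mucosal pentraxin, made most of it, at 4413, 3780 and 170 CPM. High-proliferation cells were among the other-lineage members, 12, 10 and 2 of them. Colonocyte and goblet markers were not part of this limit. The colonocyte list (20 genes, 9 outside the rule) reached 0.5% of UMIs in 58, 61 and 144 members, or 40.3%, 35.7% and 45.6%. Of these, 4, 3 and 7 were high-proliferation members. The goblet list reached it in 31, 32 and 16 members.

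Single cells carried some markers. The enteroendocrine list (14 genes) stood at 1925, 131 and 19.2 CPM, with 77.5% of its PBS UMIs in 1 cell and 6, 2 and 0 members past the limit. The fat cell list (10 genes) stood at 2169, 29.3 and 206 CPM, with 74.8% of its PBS UMIs in 1 cell. The fibroblast list (12 genes) stood at 310.2, 112 and 371 CPM in sums and at 0 in the median cell of each library. B cell markers (10 genes) stood at 10.2, 3.43 and 8.97 CPM and myeloid markers (11 genes) at 11.1, 6.5 and 8.19 CPM. Over all barcodes the B cell list stood at 756, 674 and 649.6 CPM, although the rule itself limited 5 immune genes. Without other-lineage members 112, 146 and 303 members remained.

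For BT WT over PBS, 10434 genes had at least 50 UMIs over both sums. Of these, 59 (0.565%) were at least 1.5-fold higher and 267 (2.56%) at least 1.5-fold lower in the ratio of CPM + 10, 3.12% in all. At a minimum of 20 UMIs, 0.494% of genes were higher and 2.30% lower, and without other-lineage members 0.965% and 1.92%. Genes of the gasdermin C cluster on chromosome 15 led the higher side. They encode relatives of the pore-forming gasdermins and have near-identical copies, so reads may be split or lost between them. Gsdmc4 (chromosome 15, 63891264 to 63912297) stood at 82.9 CPM in PBS and 340.8 in BT WT, a ratio of 4.11 (3.77 to 4.48), and was seen in 44.4% and 73.1% of members. Gsdmc2 stood at 32.4 and 115.5 CPM and Gsdmc3 at 11.7 and 44.2 CPM. Without other-lineage members the log2 ratios were 1.81, 1.5 and 1.26, close to 1.92, 1.57 and 1.32 with them. The same genes were higher in other crypt-type barcodes, where Gsdmc4 stood at 40.1 and 127.8 CPM, so the difference was not limited to members.

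Nrp2, a semaphorin and VEGF co-receptor, stood at 26.5 and 81.0 CPM in PBS and BT WT. Hsph1, a heat shock protein, stood at 28.6 and 79.5 CPM, and Sprr1a, a cornified-envelope protein, at 15 and 41.1 CPM. On the lower side Cbr3, a carbonyl reductase, stood at 323.9 and 33.8 CPM, 9.58-fold lower in BT WT (8.45 to 10.9). In high-proliferation members Cbr3 was at 95 and 47.3 CPM, a smaller gap. In other crypt-type barcodes Cbr3 was at 468 and 14.6 CPM. The other 5 genes that the ranking named as lower were Scd1, Gcg, Car3, Pyy and Insl5, fat and hormone genes of which 1 PBS cell held 61.1% to 88.8% of UMIs. Without other-lineage members their log2 ratios lay between -1.22 and -0.10. Hormone and fat genes of this kind make up the enteroendocrine and fat cell lists that helped pick those members, so a smaller gap without them is built in. Scd1 and Car3 were also high in other crypt-type barcodes of PBS, at 1667 and 1564 CPM.

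The division lists hardly separated PBS from BT WT. Mitosis genes had a median log2 ratio of 0.00 and DNA replication genes of -0.13, with 0 of 54 and 0 of 43 past 1.5-fold in either direction, against 0.494% higher and 2.30% lower over all genes with at least 20 UMIs. In high-proliferation members the replication median was -0.37, with 10 of 43 lower, where 2.35% of all genes were lower and 1.83% higher. Pola1, a replicative polymerase subunit, was at 11.7 and 5.88 CPM. The histone list had a median of -0.37 (2 of 18 lower), and of -0.60 in high-proliferation members (10 of 18 lower). Hist1h2ap stood at 233 and 147 CPM, but 1 PBS cell held 33.5% of its UMIs, and with equal weight per cell its log2 ratio turned from -0.63 to 0.23. Histone gene copies are near-identical, and 3' libraries catch them poorly.

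The Wnt and stem list stood at a median of 0.18, and 2 of its 25 genes were higher and 0 lower, where 0.494% of all genes were higher and 2.30% lower. Aqp4, a basolateral water channel, was the most abundant at 349 and 664 CPM, a ratio of 1.90 (1.82 to 1.99). Ccnd1 (cyclin D1, which drives entry to the cycle) was at 51.5 and 94.6 CPM and Ccnd2 at 333 and 391 CPM. Sox4, a progenitor factor of the Notch and secretory list, was at 55.1 and 90.3 CPM, and that list's median was 0.10 with 1 of 19 higher. Without other-lineage members BT WT stayed higher, at log2 values of 0.77 for Aqp4, 0.76 for Ccnd1 and 0.64 for Sox4.

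Metabolic lists differed modestly between PBS and BT WT. Cholesterol synthesis genes had a median of -0.31 (2 of 21 lower, 0 higher), where 2.30% of all genes were lower and 0.494% higher. Insig1, the sterol sensor partner of SCAP, was at 50.6 and 24.3 CPM. Oxidative phosphorylation genes had a median of -0.18 and none past 1.5-fold, with Cox7c at 2698 and 2088 CPM. Ribosome biogenesis genes had a median of 0.17, with Npm1 (nucleophosmin) at 625 and 726 CPM. The glycolysis list had a median of -0.15 with 0 higher and 1 of 17 lower. Its most different gene was Pkm, the last kinase of glycolysis, at 656 and 408 CPM over all members but at 259 and 257 CPM in high-proliferation members.

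For BT mutant over BT WT, 184 of 10714 genes (1.72%) were at least 1.5-fold higher and 207 (1.93%) at least 1.5-fold lower, 3.65% in all. At a minimum of 20 UMIs, 1.51% were higher and 1.69% lower, and without other-lineage members 0.837% and 1.38%. Mptx1 had the lowest ratio, at 3780 CPM in BT WT and 170 in BT mutant. Sval1, Ccl6, Ramp1 and Reg4 were named with it on the lower side. The log2 ratio went from -2.82 to -1.32 for Sval1, from -2.61 to -0.70 for Ccl6 and from -2.40 to -0.62 for Ramp1 without other-lineage members. Without other-lineage members the log2 ratio of Mptx1 went from -4.39 to -0.58 and that of Reg4 from -2.35 to -0.05, but both genes are on the list that picked those members, so a smaller gap without them is built in. B3gnt7, a glycosyltransferase that extends sugar chains, is on none of those lists. It stood at 217 CPM in BT WT and 27.8 in BT mutant, 7.81-fold lower (6.93 to 8.82), and at 176 and 26.5 CPM without those members. The share of members with a B3gnt7 UMI was 70.8% against 21.5%, and in other crypt-type barcodes the gene stood at 43.2 and 4.08 CPM.

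On the higher side the ranking named Cyp2c55, Cyp2c65, Aldh1a1, Gsta1, Phgr1 and Akr1c19. Cyp2c55, a colonic cytochrome P450, was at 61.3 CPM in BT WT and 243 in BT mutant (ratio 3.97, 3.61 to 4.38). Cyp2c65 was at 27.9 and 96.7 CPM, Aldh1a1, a retinal dehydrogenase, at 63.0 and 183 CPM, and Gsta1, a glutathione transferase, at 25 and 78.3 CPM. Phgr1, an abundant gene of gut epithelium, was at 1016 and 2607 CPM, and Akr1c19, an aldo-keto reductase, at 175 and 416 CPM. In high-proliferation members Cyp2c55 was at only 3.16 and 13.8 CPM and Phgr1 at 423 and 1013 CPM, with BT mutant higher for both. Each of the 6 genes was also higher in BT mutant over all barcodes, so the differences were not limited to members. There Cyp2c55 stood at 100.6 and 300.9 CPM, Aldh1a1 at 57.0 and 240 CPM and Phgr1 at 1626 and 4494 CPM. Cyp2c and Gsta genes have close paralogs, and their UMIs may be shared. PBS members stood at 195 CPM for Cyp2c55, 35.5 for Cyp2c65, 277 for Aldh1a1, 133.3 for Gsta1, 1166 for Phgr1 and 266.8 for Akr1c19, nearer to BT mutant for Cyp2c55, Aldh1a1 and Gsta1 and nearer to BT WT for the other 3. The colonocyte list had a median log2 ratio of 0.57 in BT mutant over BT WT with 4 of 9 higher, where 1.51% of all genes were higher. In high-proliferation members its median was -0.13 with 1 of 5 higher, where 2.35% of all genes were higher.

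Mitosis genes were lower in BT mutant than in BT WT, with a median log2 ratio of -0.28. Of the 54, 6 were at least 1.5-fold lower and 0 higher, against 1.69% lower and 1.51% higher over all genes with at least 20 UMIs. Nusap1, a spindle protein, stood at 22.8 and 8.71 CPM, and Cenpf at 73.8 and 43.2 CPM. High-proliferation cells were 22.8% of BT mutant and 27.5% of BT WT members, with overlapping intervals (18.3% to 27.8% and 20.9% to 34.8%). Within them the mitosis median was -0.20, with 2 of 54 higher and 3 lower, where 2.35% of all genes were higher and 5.45% lower. DNA replication genes had a median of 0.08, with none of 43 past 1.5-fold, and 0.28 in high-proliferation members with 5 of 42 higher and 1 lower (all genes: 2.35% higher and 5.45% lower). Pcna, the sliding clamp, was at 74.9 and 82.0 CPM.

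Of single stem and fate genes, Sox9 was 2.01-fold lower in BT mutant (1.83 to 2.20), and Hes1 stood at 337 and 170 CPM, while Prom1 was higher, at 54.5 and 88.0 CPM. The Hes1 difference was not limited to members. Hes1 stood at 243 and 100.3 CPM in other crypt-type barcodes and at 115.7 and 36.1 CPM in gated B cells. In the Wnt and stem list the median was -0.21, and 1 of 25 genes was higher and 1 lower. The Notch and secretory list had a median of -0.42 with 6 of 16 lower, or -0.18 and 1 of 16 without other-lineage members. Over all genes with at least 20 UMIs, 1.51% were higher and 1.69% lower, and 0.837% and 1.38% without those members. Spdef, a goblet cell factor, went from 19.6 to 5.35 CPM overall but from 6.48 to 4.82 CPM without those members. Ccnd2 stood at 391 and 254 CPM.

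Among single genes, Hoxb13, a posterior Hox gene that marks the distal end of the colon, stood at 185 CPM in BT WT and 66.6 in BT mutant, and at 169 in PBS. Which stretch of colon was sampled is not given in the sources used here. Cldn4, a tight junction claudin, stood at 76.0 and 16.9 CPM, and Hk2 (hexokinase 2) at 433 and 171 CPM. In high-proliferation members the log2 ratios were -1.45 for Hoxb13, -2.13 for Cldn4 and -1.52 for Hk2. The lists did not move with these single genes. Over all members the posterior Hox and colon position list, which holds Hoxb13, had a median of -0.10 with 0 higher and 1 of 10 lower. The glycolysis list had a median of 0.17 with 0 higher and 1 of 17 lower. Over all genes with at least 20 UMIs, 1.51% were higher and 1.69% lower.

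Oxidative phosphorylation genes were higher in BT mutant than in BT WT, with a median of 0.41 and 2 of 30 past 1.5-fold, where 1.51% of all genes were higher and 1.69% lower. In high-proliferation members the median was 0.51, with 9 of 30 higher, where 2.35% of all genes were higher and 5.45% lower. Cox6c stood at 2525, 2067 and 3039 CPM and Uqcrb at 997, 723 and 1161 CPM in the 3 libraries, so BT WT was lowest. The median of the unfolded protein response list was -0.34 (3 of 21 lower), with Hspa5, the chief chaperone of the endoplasmic reticulum, at 495 and 284 CPM. Dissociation stress genes, which respond to tissue handling, had a median of -0.29 and, in high-proliferation members, of -0.77 with 13 of 22 lower. Fos was at 1563 and 698 CPM there. Malat1, a nuclear RNA, stood at 17108, 14196 and 9285 CPM over all members. The part of handling and nuclear RNA in the other differences was not tested.

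MHC class II, which presents peptides to CD4+ T cells, was highest in BT WT members. Cd74, its invariant chain, stood at 33.5 CPM in PBS, 93.0 in BT WT and 16.4 in BT mutant. BT WT was 2.77 times PBS (2.41 to 3.20), and BT mutant was 5.68-fold lower than BT WT (4.84 to 6.69). The list had a median of 0.60 in BT WT over PBS (3 of 6 higher) and of -0.84 in BT mutant over BT WT (4 of 6 lower), against 0.494% higher and 1.69% lower over all genes. In high-proliferation members Cd74 stood at 15.9, 260.9 and 11.8 CPM, H2-Ab1 at 6.37, 87.8 and 5.63 CPM and H2-Aa at 4.77, 56.3 and 4.61 CPM. The list medians there were 2.17 and -2.18, with 5 of 5 genes past 1.5-fold each time, where 1.83% of all genes were higher in BT WT over PBS and 5.45% lower in BT mutant over BT WT. H2-Aa and H2-Ab1 were named after their values were seen.

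The signal sat in a minority of cells. At least 10 UMIs of Cd74, H2-Aa, H2-Ab1 and H2-Eb1 together, a limit set after the values were seen, were held by 8 of 144, 25 of 171 and 2 of 316 members. These are 5.56% (2.43% to 10.7%), 14.6% (9.69% to 20.8%) and 0.633% (0.0767% to 2.27%). Among high-proliferation members they were 1 of 41, 12 of 47 and 0 of 72, and 0 of 72 allows a share of up to 4.17% by the limit of 3 counts (the exact 95% interval reaches 4.99%). In BT WT they held 87.0% of the UMIs of these 4 genes, and the highest cell held 283. B cell markers summed to 2, 4 and 3 UMIs over all such cells and myeloid markers to 12, 15 and 1 UMIs (the rule itself capped 3 of the 10 B cell genes), with at most 1 B cell and 3 myeloid UMIs in any BT WT cell. Without these cells the 4 genes stood at 27.9, 24.8 and 24.3 CPM, close to each other. In other crypt-type barcodes they stood at 286, 208 and 265 CPM, above the members and with BT WT lowest. Psmb8, an immunoproteasome subunit of the MHC class I list, was at 19.6, 40.4 and 15.7 CPM, whereas H2-K1 was at 368, 280 and 260 CPM.

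For BT mutant over PBS, 95 of 10813 genes (0.879%) were at least 1.5-fold higher and 347 (3.21%) at least 1.5-fold lower, 4.09% in all. At a minimum of 20 UMIs, 0.767% were higher and 2.83% lower, and without other-lineage members 0.988% and 2.75%. This comparison shares a library with each of the other 2 and is no separate evidence for either. Gsdmc2, of the gasdermin C cluster, led the higher side, at 32.4 and 158 CPM (ratio 4.88, 4.28 to 5.58). Gsdmc4 stood at 82.9 and 240.4 CPM and Gsdmc3 at 11.7 and 41.6 CPM. Both colonized libraries were above PBS for all 3 genes, and BT WT was above BT mutant for Gsdmc4 but below it for Gsdmc2. In high-proliferation members Gsdmc4 stood at 23.3, 126.7 and 163 CPM. Apol10a, an apolipoprotein L, was at 64.4 and 189 CPM, and Sptssb, a subunit of the sphingolipid-making enzyme, at 2.55 and 24.5 CPM. Sptssb ranked between Gsdmc2 and Gsdmc4, but its log2 ratio was 0 in high-proliferation members. Over all barcodes Sptssb stood at 3.26 and 33.1 CPM. Cyp2c65 was at 35.5 and 96.7 CPM.

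The genes named as lower in BT mutant than in PBS were again Pyy, Gcg, Scd1, Car3, Mptx1 and Insl5. Insl5, a peptide hormone, had 0 UMIs in BT mutant members and 208.9 CPM in PBS, at least 808-fold higher in PBS at a floor of 3 UMIs in the sum of BT mutant. In PBS 1 cell held 61.1% of the Insl5 UMIs. Mptx1, on the list that picked the other-lineage members, changed direction without them, from a log2 ratio of -4.62 to 0.70 (63.0 against 109 CPM). Cbr3 stood at 323.9 and 55.2 CPM.

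Among lists, mitosis genes had a median of -0.27 in BT mutant over PBS with 6 of 54 lower, where 2.83% of all genes with at least 20 UMIs were lower and 0.767% higher, 3.59% in all. In high-proliferation members the median was -0.03, and 6.57% of all genes were lower and 2.35% higher there. DNA replication genes had a median of -0.02 (1 of 43 lower), and Ccne2 (cyclin E2) was at 12.9 and 3.45 CPM. For the Wnt and stem list the median was -0.03, and 3 of 25 genes were higher and 1 lower. Prom1, a membrane protein of crypt progenitors, was at 2.60 times the PBS level (2.27 to 2.99), at 33.8, 54.5 and 88.0 CPM in the 3 libraries, and Sox9 was lower. Gadd45a, a p53 target, was at 84.8, 49.2 and 36.1 CPM.

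**Figure D4:**
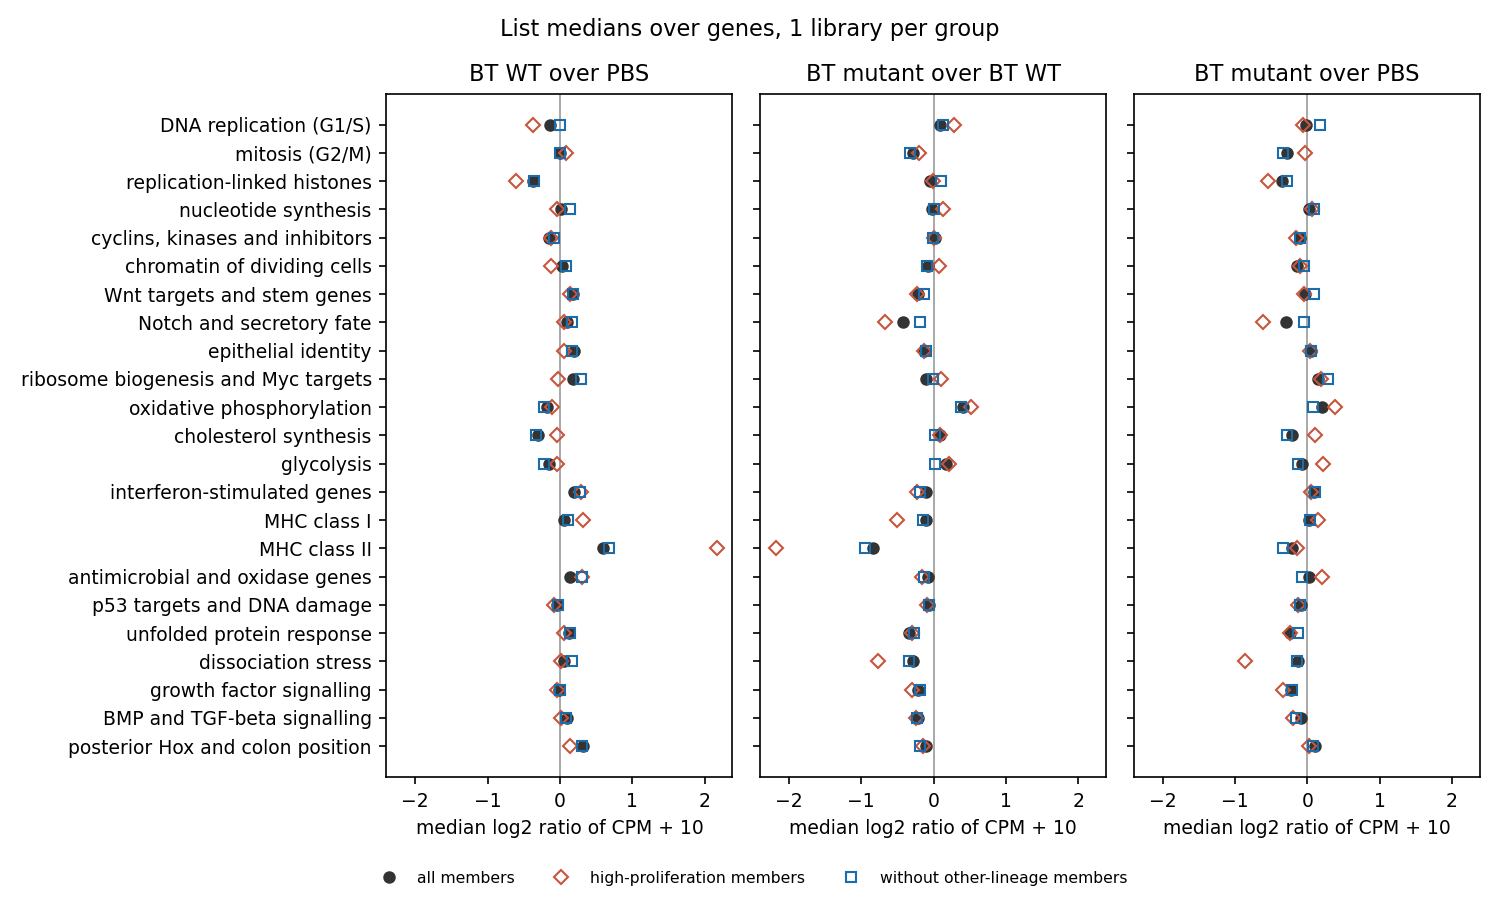
Median log2 ratio of CPM + 10 over the measured genes of each list, in the 3 comparisons of 1 library each. Filled points are all members, diamonds are high-proliferation members and squares are members without other-lineage cells; genes are not replicates. MHC class II genes lie farthest out, at 2.17 and -2.18 in high-proliferation members.

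**Figure D5:**
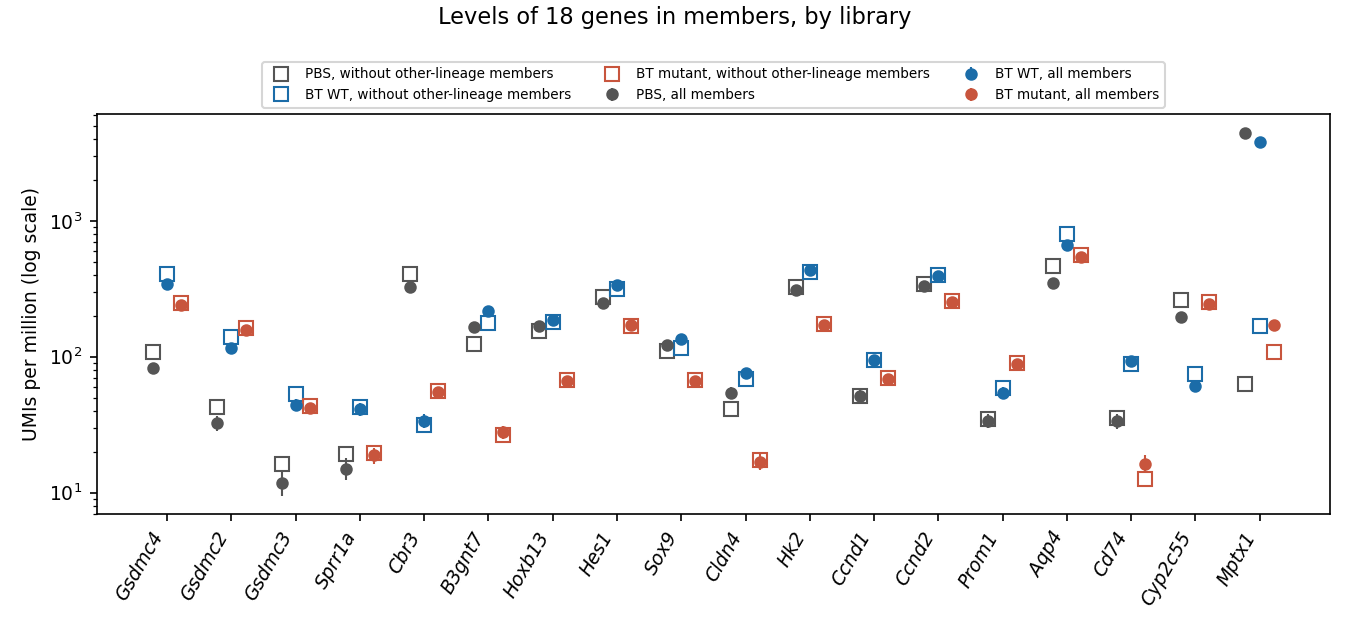
Level of 18 genes in CPM (log axis) in the members of each library, with exact Poisson 95% intervals that cover counting error only. Filled points are all members and squares are members without other-lineage cells; Mptx1 drops in PBS and BT WT without those cells, while Gsdmc4, Cbr3, B3gnt7 and Hoxb13 move by less than 1.5-fold.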

How the data were processed

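Per the labels' protocols, droplet libraries of colon cells used 10x Genomics v3 chemistry. Per the file headers, Cell Ranger 5.0.0 wrote the deposited matrices of raw UMI counts for each gene and barcode. STAR and mm10 are named in the submitters' processing notes. How barcodes were called cells is not given in the sources used here.

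From these counts, UMIs of a library's members were summed and divided by their total (CPM). Log2 ratios and calls use CPM + 10, and printed ratios use CPM alone with exact conditional binomial 95% intervals. Shares have Clopper-Pearson intervals. Genes needed 50 UMIs over both sums and list genes 20. The intervals were tested on simulated Poisson counts of the sums. Such counts share the assumption of the intervals and leave out differences between cells, so the test cannot show that the intervals cover those. Members and gene lists were chosen with earlier results of these data known. Named genes were the 14 rule genes of proliferation and epithelium, 12 stem and fate genes, and the 15 most apart from other crypt-type barcodes. Added per comparison were the 6 largest log2 ratios each way (at least 100 UMIs, a UMI in at least 10% of members, an interval without 1, and a level of 50% or more of that over all barcodes), and each described list's most abundant and most different gene. Rule genes were left out of lists. Python 3.11.15, numpy 2.4.6, scipy 1.17.1, pandas 2.3.3 and scanpy 1.11.5 were used.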

Additional observations from a re-analysis of the deposited data

How the results depend on the processing

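Each library is 1 sample, so intervals cover counting error only, and depth sets much of the membership. No paired analysis was possible because each group has 1 library and the replicate numbers only name the samples. Leaving out a replicate was not possible for the same reason. The subsets of high-proliferation members and of members without other-lineage cells were chosen after seeing the data. In what follows shares are percent of gated epithelial barcodes in the order PBS, BT WT and BT mutant, and W/P is BT WT against PBS, M/W is BT mutant against BT WT, and M/P is BT mutant against PBS. The cause of each shift was not tested.

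The member share was 8.73, 3.12 and 6.25 with no mitochondrial limit, 17.9, 5.36 and 11.2 with at least 3 proliferation UMIs, 9.53, 2.68 and 5.13 with at least 10, 3.37, 0.829 and 1.49 with every cell thinned, and 3.99, 1.09 and 1.95 for high-proliferation members. It was 20.6 in PBS and 11.6 in BT mutant with at least 1000 genes, and 11.5 in BT WT and 20.1 in BT mutant at a mitochondrial limit of 10%, where BT mutant was above PBS (14.3).

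Genes higher and lower in W/P numbered 122 and 148 in high-proliferation members, 341 and 603 at a pseudocount of 1, and 114 and 121 with members thinned. Higher genes in W/P were 105 at the 10% limit and 104 without other-lineage members, and lower ones 164 with members of no stromal and under 2 immune UMIs (no stromal UMI below). In M/W, 406 were lower in high-proliferation members, 294 higher and 332 lower at the 10% limit, 526 higher and 648 lower at a pseudocount of 1, and 97 higher without other-lineage members. In M/P, higher genes were 177 in high-proliferation members, 230 at the 10% limit, 402 (876 lower) at a pseudocount of 1, and 176 (200 lower) with members thinned.

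The DNA replication median in W/P was -0.37 in high-proliferation members, -0.24 at the 10% limit, -0.095 with equal weight per cell, -0.34 at a pseudocount of 1, 0.20 thinned and 0.00096 without other-lineage members. In M/W it was 0.13 with at least 10 proliferation UMIs, 0.28 in high-proliferation members, 0.14 at the 10% limit, 0.15 at a pseudocount of 1, 0.17 with no stromal UMI and -0.020 thinned. In M/P it was -0.065 in high-proliferation members, -0.079 at the 10% limit, 0.042 with no stromal UMI, 0.10 thinned and 0.17 without other-lineage members. The mitosis median in W/P was 0.081, -0.12, 0.048, -0.13 and 0.095 (high-proliferation, 10% limit, equal weight, no stromal UMI, thinned). In M/W it was -0.20 in high-proliferation members, -0.55 at a pseudocount of 1 and -0.175 with no stromal UMI. In M/P it was -0.031, -0.47, -0.55 and -0.19 (high-proliferation, 10% limit, pseudocount of 1, thinned). The Wnt and stem median was -0.093 in W/P and -0.27 in M/P thinned, and 0.087 in M/P without other-lineage members. The share of members at 50% or more in mitosis balance was 93.5 in BT WT for high-proliferation members, and in BT mutant 64.4 with at least 10 proliferation UMIs and 62.5 at the 10% limit. Without Tubb4b, also chosen after seeing the data, it was 76.3, 73.1 and 64 over all members, and the intervals overlapped. In high-proliferation members it was 81.6, 93.5 and 70.1 with and without Tubb4b, and the intervals of BT WT and BT mutant lay apart.

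Directions turned for Hist1h2ap in W/P (0.23 with equal weight, 0.30 thinned), Ccl20 (0.22) and Ifi27l2a (0.45) in W/P in high-proliferation members, Hspb1 in M/W (-0.22) and Mptx1 in M/P (0.70) without other-lineage members, and Rangrf in PBS (-0.38) thinned. Doublet removal, median-ratio scaling, other UMI minimums per gene and a minimum of 20 UMIs for the balance moved none of the counts of genes, medians of these 3 lists or balance shares they were run on by more than the counting intervals or 1.5 times.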
